A study of Mus musculus with 4 samples.

Results

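The genes described here were 40 genes that copy DNA in S phase, out of 32285 genes counted in the files. They were taken from a fixed list by role and not by their values, but the list was chosen with earlier results of these data known. Each had UMIs in the libraries (a UMI, unique molecular identifier, counts 1 captured RNA molecule). 11 open origins or form the helicase (Mcm2 to Mcm7, Mcm10, Cdc6, Cdc45, Gins1, and Gins2), 5 belong to the sliding clamp and its loaders (Pcna, Rfc2, Rfc3, Rfc4, and Dscc1), 3 to polymerases and primase (Pola1, Pole, and Prim1), and 3 to the protection of the fork (Rpa2, Tipin, and Clspn). A further 3 are nucleases or repair enzymes (Fen1, Exo1, and Ung), 3 make nucleotides (Tyms, Rrm1, and Rrm2), 6 act on chromatin and histones (Nasp, Slbp, Chaf1b, Uhrf1, Hells, and Cdca7), and 5 regulate entry into S phase or its course (Ccne1, Ccne2, E2f1, E2f8, and Dtl). Wdr76 was kept apart. All 40 passed the filter on low values, a mean of at least 5 UMIs per 1000000 UMIs (UPM) over the libraries.

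The libraries were 4 droplet single-cell RNA-seq libraries, 1 each from bone marrow of control mice (CBM) and of tumor-bearing mice (TBM) and from spleen of control (CS) and of tumor-bearing mice (TS). Values given as a run of 4 stand in this order, CBM, TBM, CS, and TS. All mice were C57BL/6J females aged 8 to 16 weeks. The tumors were of the PyMT-B6 line, which was derived from mammary tumors of MMTV-PyMT mice, where a mammary promoter drives the polyoma middle T oncogene. Cells were depleted of lineage-positive cells, sorted as Lin-/CD45+/c-Kit+ cells with or without Sca-1 and as CD45- cells with or without CD31 and CD51, and the sorted fractions were mixed in equal parts before loading, so any share of cells below refers to that mixture. The number of mice behind a library is not given in the sources used here. With 1 library in a group, no difference between groups could be tested, and every interval below is a 95% interval for counting error only.

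Each origin is licensed in G1 by loading of the MCM2-7 ring, for which CDC6 is needed, and it fires once CDC45 and GINS join the ring. Cyclin E with CDK2 drives this step, and E2F transcription factors switch on most of the genes involved at the G1/S boundary, while E2F8 turns them down again later in S phase. The product of Rrm2 limits the supply of deoxynucleotides, and SLBP and NASP handle the histones that package the new DNA. In the hematopoietic system, long-term stem cells are mostly quiescent, whereas erythroid progenitors divide fast until shortly before they lose the nucleus.

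Some of the members share a promoter motif that the list did not use. RefSeq promoter entries (GRCm38.p6, the 250 bases before each start) were found for 31 of the 40 members and not for Exo1, Tipin, Rfc2, Ccne2, Gins1, Mcm4, Dscc1, Pole, and Gins2. The core 8-base E2F motif, spelled TTTCCCGC, TTTCGCGC, TTTGCCGC, or TTTGGCGC and searched on both strands, was present in 10 of these 31 genes (32.3%) and in 2.48% of 20267 genes with an entry. It was found in 12 of 54 other replication genes and in 1 of 31 genes of a G2 and mitosis list. The 5-base CCAAT box was present in 20 of the 31 members (64.5%) and in 38.5% of all genes, and it was found in 25 of the 54 other replication genes and in 24 of the 31 G2 and mitosis genes. The cell cycle homology region, spelled TTTGAA, was present in 6 of the 31 members (19.4%) and in 16.8% of all genes, and in 9 of 54 and 11 of 31 genes of those lists. The windows of the members had a median GC content of 58.8%, against 52.4% over all windows. Of the 10 genes with an E2F match, 8 are printed here, 4 of helicase and licensing genes, 1 of a clamp loader gene, 1 of a regulator, and those of Hells and Cdca7, whose levels across cell classes went another way than those of most members. The sequences run in the direction of the gene toward the start of the RefSeq entry. That start can differ from the end of the annotated gene. The windows of Cdc6 and Mcm7 lay wholly inside the gene, which began at 98907801 for Cdc6 and 138172422 for Mcm7. Those of Rfc3, Hells, and Cdca7 lay partly inside. Another entry of Mcm7 had no match. Capitals mark each E2F match, with overlapping matches on both strands merged into a longer run.
Mcm5, chr8:75109259-75109508, plus strand: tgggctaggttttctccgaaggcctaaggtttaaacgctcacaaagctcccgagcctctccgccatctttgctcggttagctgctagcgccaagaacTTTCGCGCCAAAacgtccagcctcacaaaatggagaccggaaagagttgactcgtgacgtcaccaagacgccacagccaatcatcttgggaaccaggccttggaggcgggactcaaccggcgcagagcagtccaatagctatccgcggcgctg
Mcm6, chr1:128359706-128359955, minus strand: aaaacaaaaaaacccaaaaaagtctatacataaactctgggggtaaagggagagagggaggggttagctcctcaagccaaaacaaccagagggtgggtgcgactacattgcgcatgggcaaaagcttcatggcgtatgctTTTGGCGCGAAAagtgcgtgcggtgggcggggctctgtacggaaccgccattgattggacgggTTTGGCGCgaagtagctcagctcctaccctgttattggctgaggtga
Mcm7, chr5:138171884-138172133, minus strand: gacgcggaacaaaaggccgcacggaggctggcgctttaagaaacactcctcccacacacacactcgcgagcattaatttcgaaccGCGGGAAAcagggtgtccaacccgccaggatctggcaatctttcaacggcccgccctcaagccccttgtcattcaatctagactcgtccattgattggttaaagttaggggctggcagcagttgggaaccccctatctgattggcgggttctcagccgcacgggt
Cdc6, chr11:98907901-98908150, plus strand: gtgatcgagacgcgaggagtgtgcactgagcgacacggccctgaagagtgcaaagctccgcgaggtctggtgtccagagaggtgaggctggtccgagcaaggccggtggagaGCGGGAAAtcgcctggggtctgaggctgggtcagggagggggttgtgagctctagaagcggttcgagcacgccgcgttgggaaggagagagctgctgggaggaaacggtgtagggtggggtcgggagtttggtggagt
Rfc3, chr5:151651209-151651458, minus strand: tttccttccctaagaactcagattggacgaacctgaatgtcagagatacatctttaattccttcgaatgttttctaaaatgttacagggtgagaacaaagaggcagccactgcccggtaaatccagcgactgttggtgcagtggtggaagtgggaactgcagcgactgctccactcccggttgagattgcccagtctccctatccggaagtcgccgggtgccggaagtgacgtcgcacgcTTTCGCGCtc
Dtl, chr1:191575545-191575794, minus strand: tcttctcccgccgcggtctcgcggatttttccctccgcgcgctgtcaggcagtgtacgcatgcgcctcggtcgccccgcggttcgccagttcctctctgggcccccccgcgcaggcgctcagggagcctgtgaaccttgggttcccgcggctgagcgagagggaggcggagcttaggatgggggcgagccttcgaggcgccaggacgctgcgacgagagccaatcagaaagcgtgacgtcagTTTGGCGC
Hells, chr19:38930740-38930989, plus strand: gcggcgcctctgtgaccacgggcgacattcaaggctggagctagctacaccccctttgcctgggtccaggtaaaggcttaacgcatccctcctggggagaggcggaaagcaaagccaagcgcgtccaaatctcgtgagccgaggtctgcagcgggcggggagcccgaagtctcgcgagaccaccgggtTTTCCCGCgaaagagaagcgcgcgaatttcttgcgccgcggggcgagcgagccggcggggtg
Cdca7, chr2:72475969-72476218, plus strand: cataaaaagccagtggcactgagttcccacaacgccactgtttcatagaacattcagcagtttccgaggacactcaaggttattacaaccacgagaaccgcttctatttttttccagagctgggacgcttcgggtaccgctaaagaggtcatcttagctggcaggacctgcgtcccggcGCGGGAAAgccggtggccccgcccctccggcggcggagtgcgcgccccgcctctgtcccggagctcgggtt
Mcm6 had 3 matches and Mcm5 had 2, while the other 6 had 1 each. Those of Dtl and Rfc3 lay 8 and 10 bases before the start of the RefSeq entry. A match is a stretch of letters and was not tested for binding.

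Barcodes with at least 1000 genes and at most 10% mitochondrial UMIs were kept, which left 3497, 4340, 3236, and 5188 barcodes, with median depths of 13738 to 26808 UMIs. Any pair of libraries shared 2 to 9 of these barcodes. Cells were clustered without the members or any other cell cycle list, and clusters were named from fixed markers as resembling a cell class. The HSPC-like class (hematopoietic stem and progenitor cells) held 814, 916, 148, and 688 cells, and none of its 12 markers was at 0 in any library. The 3517 cells of unnamed clusters were left out of the comparisons between classes, and they made up 40.8% of the CS cells and 11.9% to 23.6% of the others. No cluster was named macrophage or stromal. RNA in barcodes of at most 100 UMIs, taken as free RNA, held 32.2, 34.8, 29.0, and 36.8 member UMIs per 10000. This lay within the range of the cell classes, close to the HSPC-like level and above that of mast or basophil-like cells, and its part in the values below was not tested beyond the subtraction given with the limits.

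The hemoglobin-rich erythroid-like cells carried the highest summed level of the 40 genes in all 4 libraries among classes of at least 50 cells, and the mast or basophil-like cells one of the lowest. In the hemoglobin-rich cells, which express globins and Alas2, the members made up 78.1, 75.3, 91.6, and 82.6 of every 10000 UMIs. Globin transcripts took 12.4% to 25.9% of their UMIs, and with these left out of the total the level was 94.2 to 121. Early erythroid-like cells, with Klf1 and Car1, stood at 42.6 in CS (505 cells) and 41.9 in TS (2190 cells). The granulocyte-monocyte progenitor-like cells, with Elane and Prtn3, ranged from 32.5 in CBM to 42.1 in TS, monocyte-like cells from 38.7 in CS to 47.2 in TBM, and megakaryocyte-like cells from 33.9 in TBM to 35.9 in CBM. Mast or basophil-like cells stood at 18.9, 24.8, 18.1, and 25.8. T, NK, or innate lymphoid-like cells had 31.6 in CS and 43.1 in TS, and B-lineage cells 33.0 in CBM and 22.2 in TBM. Dendritic-like cells of CS had 14.1, and neutrophil-like cells of TBM had 20.4 as a sum but a median of 6.27 in single cells. Among megakaryocyte-like cells, the small cluster with Ppbp and Clec1b, genes of late megakaryocytes and platelets, held 2.34 to 13.8. The HSPC-like class stood at 31.6, 31.3, 29.9, and 38.1. It lay below the hemoglobin-rich, granulocyte-monocyte progenitor-like, and monocyte-like cells wherever these are given. In CBM only the mast or basophil-like cells were lower.

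**Figure D1:**
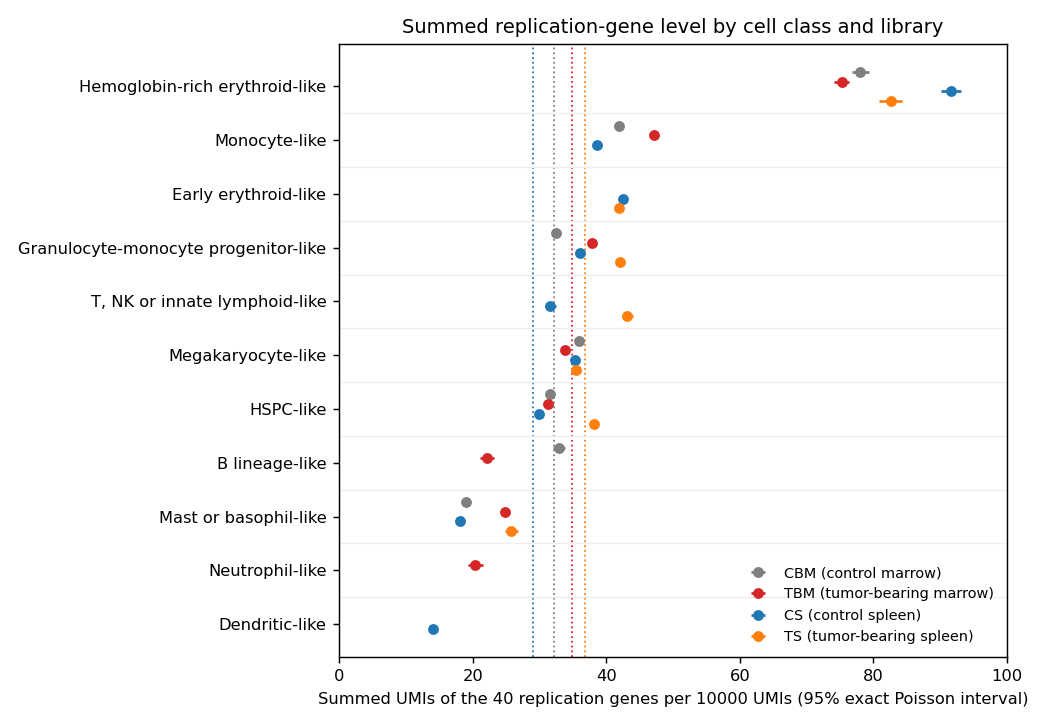
Each point is the summed level of the 40 replication genes in 1 class of 1 library (at least 50 cells), on the x axis in UMIs per 10000 UMIs with its 95% exact Poisson interval. Dotted lines mark the free RNA level of each library. Hemoglobin-rich erythroid-like cells lie between 75.3 and 91.6, to the right of every other class.

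Among single members, the hemoglobin-rich erythroid-like cells had the highest level of any class for 32, 31, 33, and 35 of the 40 genes in the 4 libraries. How often other genes were highest in this class was not counted, so these counts have no background. Compared with the HSPC-like cells of their own library, 28 of the 40 members were more than 1.5-fold higher in each of the 4 libraries, against 9.69% of 9559 genes, and 1 was lower in each, against 44.1%. Ccne1, which encodes cyclin E1, differed most. It had 5.40, 6.71, 4.38, and 10.6 UPM in HSPC-like cells, and 191, 175, 256, and 205 in hemoglobin-rich cells, and the log2 ratio was 4.27 to 5.87. Rrm2, the regulated subunit of ribonucleotide reductase, rested at 31.5 to 72.3 in HSPC-like cells and reached 701 to 1006 in the hemoglobin-rich cells, with log2 ratios of 3.28 to 4.74. Ccne2, E2f8, and Cdc6 followed, with lowest log2 ratios over the libraries of 2.28, 2.44, and 2.31.

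Not every member followed the sum. Cdca7, which recruits the chromatin remodeler HELLS, was the gene that was lower in each library, at 54.4, 36.2, 34.9, and 57.7 UPM in hemoglobin-rich cells against 155, 132, 140, and 142 in HSPC-like cells. Hells itself was also below its HSPC-like level in each library, with log2 ratios of -0.56 to -0.33, as was Ung, a uracil-DNA glycosylase, with -0.83 to -0.16. Rfc2, a clamp loader subunit, showed -0.55 to 0.08. Over 26 class-by-library units of at least 100 cells, the log2 level of single members went with the log2 summed level with a Pearson r from 0.98 for Mcm7 down to 0.43 for Hells, 0.34 for Cdca7, 0.31 for E2f8, and -0.04 for Rfc2. These are descriptions over units that share libraries and depth, and each member is part of the sum. The hemoglobin-rich cells of CBM and TBM were among the units and lay far above the others in the sum. The exons of Rfc2 overlap those of Lat2 on the opposite strand, so reads of Lat2 could enter its counts only if counting did not use strand. The paper names Cell Ranger with default settings and does not mention strand. The same condition holds for Mcm7, Cdc45, Gins2, Rfc4, Dscc1, Pole, Fen1, Ccne2, and E2f8.

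**Figure D2:**
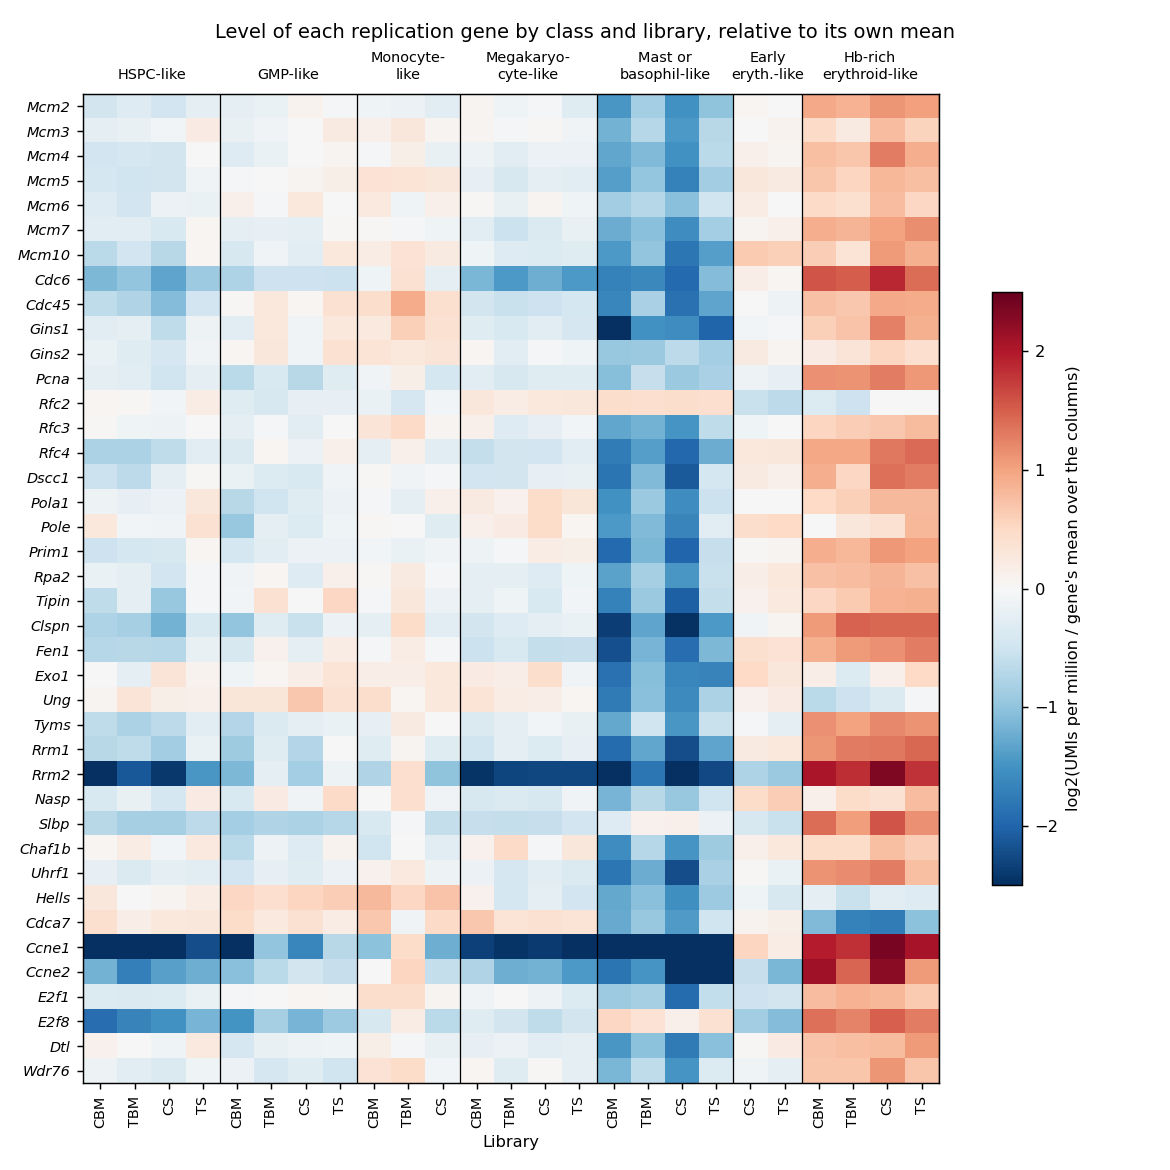
Rows are the 40 members by role and columns are class and library. Color gives the log2 of a gene's UPM over its own mean across the columns, from blue (lower) to red (higher), so colors compare columns within a row and not genes with each other. Hemoglobin-rich columns are red for most genes but blue for Cdca7, and E2f8 and Rfc2 stay above their mean in mast or basophil-like columns.

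In the mast or basophil-like cells, 14 members were more than 1.5-fold below the HSPC-like level in each of the 4 libraries, against 9.11% of 9570 genes, and 1 was higher in each, against 7.66%. That 1 was E2f8, a repressor of E2F targets, which had 120, 107, 91.3, and 108 UPM where the HSPC-like cells had 22.5, 26.1, 29.1, and 37.2. E2f8 was also the single member more than 1.5-fold higher in megakaryocyte-like cells in each library, at 67.3, 60.6, 53.6, and 60.8, where 4.12% of all genes were called higher. Rfc2 and Slbp were the other members above the HSPC-like level in mast or basophil-like cells of every library, with log2 ratios of 0.23 to 0.51 and 0.36 to 0.95. By the mean over libraries, the lowest ratios there were those of Exo1, a 5' exonuclease (-1.97 to -0.84), and of the GINS subunit Gins1 (-2.25 to -0.92), on counts of 5 to 72 UMIs per library.

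Relative to HSPC-like cells, granulocyte-monocyte progenitor-like and early erythroid-like cells differed in few members in every library compared, and monocyte-like cells in more. In granulocyte-monocyte progenitor-like cells Rrm2, Ccne1, and Cdc45 were more than 1.5-fold higher in each library and no member was lower (5.49% and 19.7% of all genes). Rrm2 reached 91.8, 168, 110, and 184 UPM there. In early erythroid-like cells, compared in the 2 spleen libraries, Ccne1 and Cdc6 were higher in both and no member was lower (11.2% and 28.9% of all genes). Ccne1 stood at 71.6 in CS and 55.9 in TS in these cells, between its HSPC-like and hemoglobin-rich levels. In monocyte-like cells, compared in CBM, TBM, and CS, 9 members were higher in each and none lower, against 7.78% and 17.2% of all genes.

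The design crosses tumor with tissue, and the HSPC-like cells of TS stood apart in the sum. Their level of 38.1 was higher than the 29.9 of CS by 0.35 on the log2 scale (0.32 to 0.38), and higher than the 31.3 of TBM by 0.29 (0.27 to 0.30). These values depended on how cells were assigned. With classes taken from each barcode's own markers they were 0.18 and 0.14, and with barcodes of at least 350 genes as well they were 0.12 and 0.12. Of the 2566 HSPC-like cells, 1243 were HSPC by their own markers, 700 had no class, and 333 and 186 scored highest for stromal and endothelial markers. In bone marrow, TBM and CBM differed by -0.01 (-0.03 to 0.01), and the controls CS and CBM differed by -0.08 (-0.11 to -0.05). The sign for the controls turned with the cells taken. It was 0.016 from 350 genes with own markers, and 0.081 without cluster 20, which is described below. The median of single cells was 17.7, 18.5, 16.3, and 28.4 per 10000. After each cell was thinned to 2000 UMIs, at least 5 member UMIs were found in 43.6% of HSPC-like cells of CBM (40.2% to 47.1%, exact binomial), 44.1% of TBM, 35.1% of CS (27.5% to 43.4%), and 58.3% of TS (54.5% to 62.0%). Cells at the limit were many, with 74, 86, 16, and 65 cells at exactly 4 UMIs and 51, 68, 9, and 61 at exactly 5, so that this is a range and not a cell type. Without thinning the shares were 96.1% to 99.3%. The neutrophil-like cells of TBM gave 18.9% after thinning, at a median depth of 8815 UMIs against 13463.5 in the HSPC-like cells of TBM. Against those HSPC-like cells, 21 members were more than 1.5-fold lower and 5 higher, where 61.6% and 12.9% of 9584 genes were. The higher ones were Rrm2 (log2 ratio 2.21), Ccne2 (1.48), E2f8 (1.13), Ccne1 (1.09), and Cdc45 (0.65). Whether some of these cells divide was not tested, so 18.9% is not a baseline for nondividing cells.

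The class was made of different clusters in the 4 libraries. Cluster 1, led by Hlf and Mecom, genes of long-term stem cells, held 74.6%, 57.9%, 40.5%, and 4.36% of the HSPC-like cells. Cluster 3, led by Cd34, Dntt, and Flt3, genes of multipotent and lymphoid-primed progenitors, held 25.4%, 41.6%, 35.1%, and 55.1%. Cluster 20 was led by Ly6a together with the early response and inflammatory genes Dusp2, Cxcl2, Socs3, and Egr1, and it held 24.3% of CS and 40.6% of TS but 0 cells of CBM and 5 of TBM. Cluster 1 had 23.5, 21.1, 22.9, and 23.5 member UMIs per 10000, and cluster 3 had 44.1, 38.7, 40.2, and 44.5. The log2 ratio of TS over CS was 0.03 (-0.10 to 0.16) in cluster 1 and 0.15 (0.11 to 0.18) in cluster 3. Cluster 20 had 14.2 in CS (36 cells) and 22.1 in TS (279 cells), a log2 ratio of 0.63 (0.53 to 0.74). For TBM over CBM the log2 ratio was -0.16 in cluster 1 and -0.19 in cluster 3, while the whole class gave -0.01. The 12 HSPC markers also differed between the libraries, at a summed level of 21.4, 19.0, 18.4, and 14.0 per 10000. The part of the cluster shares and of the markers in the sum over the class was not tested beyond these values.

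**Figure D3:**
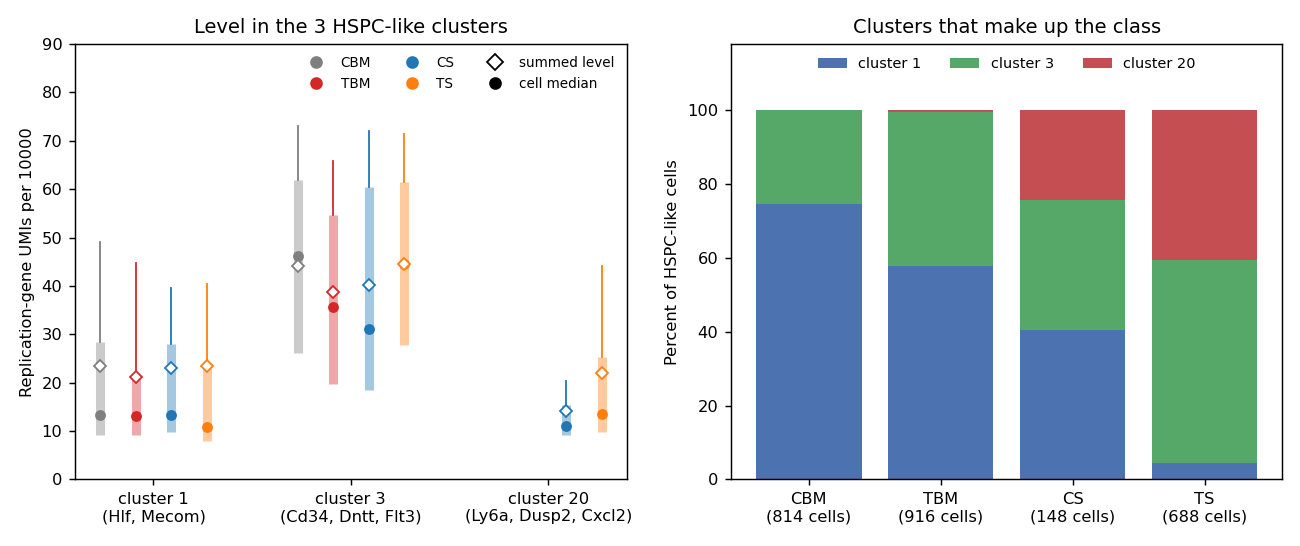
Left, replication-gene UMIs per 10000 in the 3 HSPC-like clusters of each library with at least 30 cells, where circles are the median of single cells, wide bars the interquartile range, thin lines reach the 90th percentile, and diamonds are the summed level. Right, percent of HSPC-like cells in each cluster, where cluster 1 holds 74.6% of CBM and 4.36% of TS while cluster 3 holds 55.1% of TS.

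Across the members, TS was above CS in 36 of 40 genes in HSPC-like cells, and in 46.4% of all 9561 genes tested. The median of the members' log2 ratios was 0.37 where all genes had -0.03. Past 1.5-fold, 8 members were higher and 0 were lower, against 4.64% and 7.48% of all genes. The higher ones were Ccne1, Rrm2, Tipin, Clspn, Mcm10, Rrm1, Nasp, and Cdc45, and the largest log2 ratio, 1.28 (0.47 to 2.19) for Ccne1, rested on 14 UMIs in CS and 114 in TS. Rrm2 had 31.5, 45.7, 37.6, and 72.3 UPM, and TS was the highest library. Tipin, whose product stabilizes the fork with Timeless, had 104, 138, 83.6, and 158, and both tumor-bearing libraries were above both controls. Clspn, the checkpoint mediator claspin, had 58.8, 56.6, 43.8, and 77.2, with CS lowest, TS highest, and both marrow libraries between them. Mcm10, which helps to start the helicase, had 24.5, 27.8, 24.1, and 40.5.

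By role, the fork genes and the nucleotide genes had the largest sums in TS over CS, 0.77 (0.64 to 0.90) and 0.66 (0.54 to 0.78), the latter with Rrm2 at 0.95 and Rrm1 at 0.71. Polymerase genes stood at 0.45, regulators at 0.35 (0.20 to 0.49), and helicase genes at 0.31, with 2 of 11, Mcm10 and Cdc45, past 1.5-fold. Clamp genes stood at 0.26, chromatin genes at 0.25, and the nuclease and repair genes at 0.22. The 5 lowest members were Exo1 (-0.23, interval -0.56 to 0.11), Uhrf1, a maintenance methylation cofactor (-0.04), Mcm6 (-0.03), Ung (-0.01), and Cdca7 (0.02), all with intervals that held 0. Within cluster 3 alone, 2 members were past 1.5-fold higher in TS, Ccne1 and Tipin, and 1 lower, Exo1, against 6.18% and 10.3% of 9533 genes. In cluster 20 the counts were 26 and 1, against 12.8% and 10.9%, on 36 cells of CS. In cluster 1, with 30 cells of TS, they were 10 and 9 of 39, against 18% and 16.6%, so the higher side did not prevail there, and Rrm1 (0.94), Cdca7 (-1.45), and Mcm3 (-0.64) had intervals that left out 0 among those called.

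**Figure D4:**
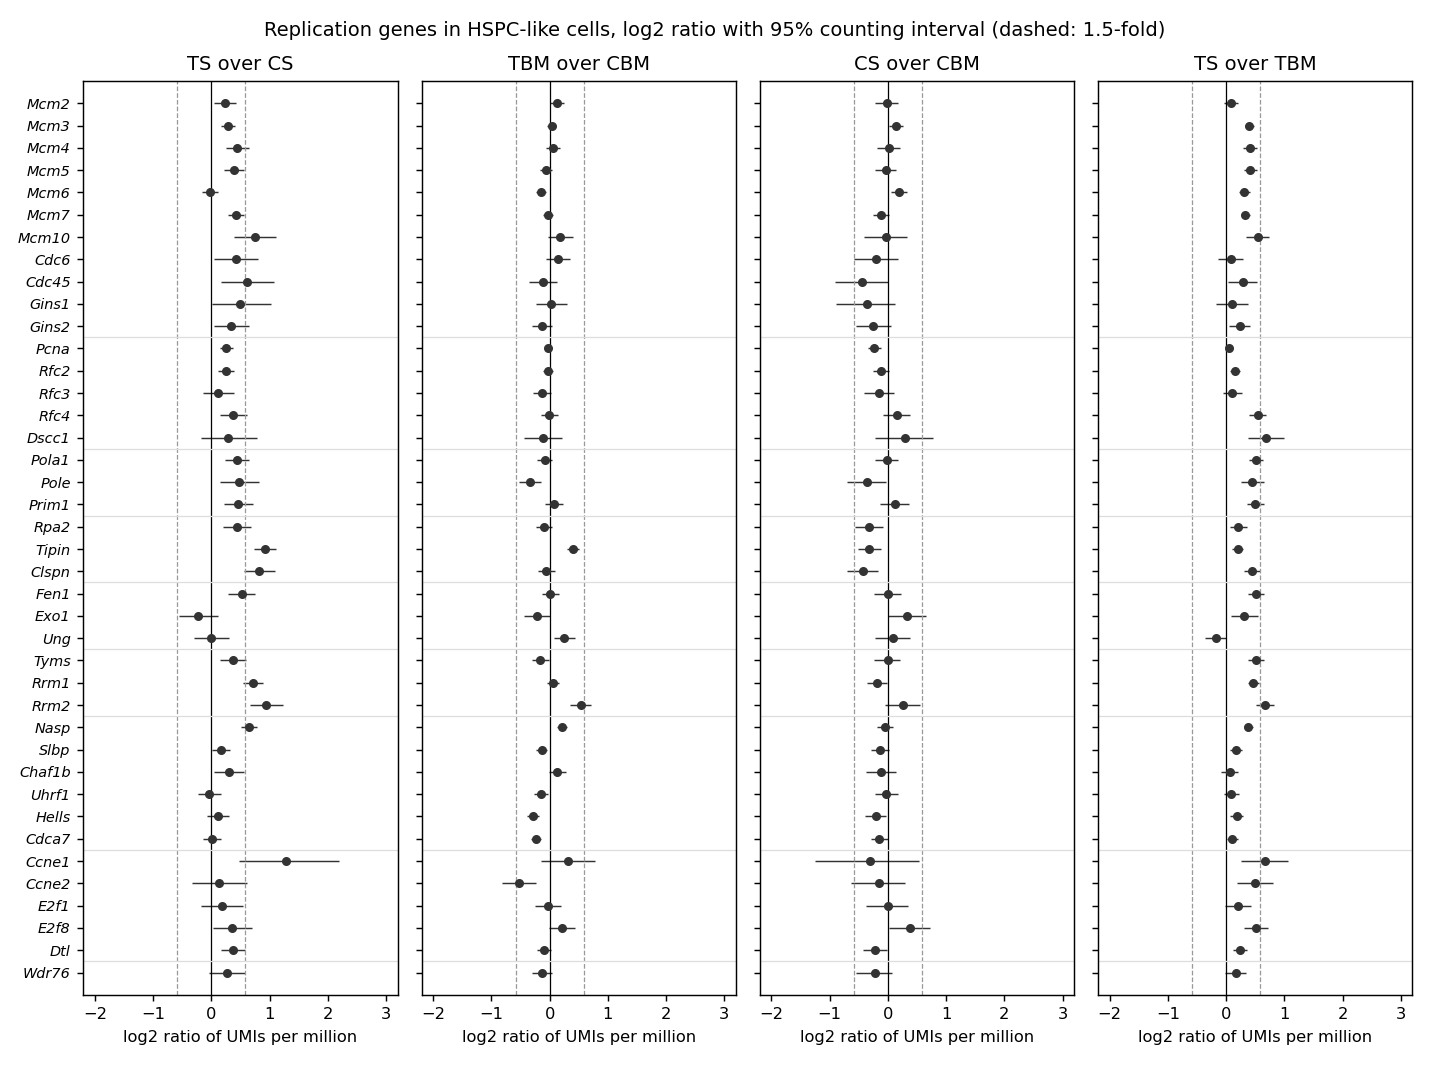
Log2 ratio of UPM for each of the 40 members in HSPC-like cells, in the 4 comparisons of libraries, with 95% counting intervals. Dashed lines mark 1.5-fold and grey lines separate the roles. Most points lie right of 0 in TS over CS (36 of 40) and TS over TBM (39 of 40).

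In bone marrow, 0 of 40 members passed 1.5-fold in either direction between TBM and CBM, against 2.96% of 9566 genes higher and 2.82% lower. Above 0 lay 16 members and 49.2% of all genes. Cluster 1 held 74.6% of these cells in CBM and 57.9% in TBM, and within clusters the counts differed. In cluster 1, Rrm2 (0.71) was past 1.5-fold higher and Exo1 (-0.74), Pole (-0.64), and E2f1 (-0.60) lower, against 3.95% and 3.42% of all genes. There 7 members lay above 0, against 54% of all genes. In cluster 3, 0 members were higher and Ccne2 (-0.88) was lower, against 4.35% and 4.08%, and 5 lay above 0, against 47.5% of all genes. In the whole class, the 5 highest were Rrm2 (0.54, interval 0.36 to 0.72), Tipin (0.40), Ccne1 (0.31), Ung (0.25), and E2f8 (0.22). The lowest were Ccne2, the second cyclin E (-0.53, interval -0.82 to -0.23), Pole, the leading strand polymerase (-0.34), Hells (-0.28), Cdca7 (-0.23), and Exo1 (-0.21). Hells had 113, 93.1, 98.0, and 106 UPM.

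Between the control tissues, 0 members passed 1.5-fold in CS over CBM (4.15% of 9559 genes higher, 2.94% lower). Of the 40, 29 lay below 0, where 54.3% of all genes lay above 0. E2f8 (0.37), Exo1 (0.33), Dscc1 (0.29), Rrm2 (0.25), and Mcm6 (0.19) were highest, and Cdc45 (-0.44), Clspn (-0.43), Gins1 (-0.36), Pole (-0.36), and Rpa2 (-0.32) were lowest. Cluster 20 held 24.3% of these cells in CS and 0 in CBM, and without it the sum of CS over CBM turned from -0.08 to 0.081. Within clusters 1 and 3, 24 and 27 of 40 members lay below 0, where 51.5% and 55.5% of all genes lay above 0. Between the tumor-bearing tissues, 39 of 40 members lay above 0 in TS over TBM, against 50.1% of 9574 genes. Their median was 0.31, against 0.00 over all genes. Past 1.5-fold, 3 members were higher, Dscc1 (0.68), Ccne1 (0.66), and Rrm2 (0.66), and 0 were lower, against 3.55% and 3.85% of all genes. Mcm10 and Rfc4 followed with 0.54 each. Ung, at 36.1, 43.0, 38.2, and 37.9 UPM, was the 1 member below 0 (-0.18), and Pcna (0.04), Chaf1b (0.06), Cdc6 (0.07), and Mcm2 (0.09) were the next lowest. Cluster 1 held 57.9% of these cells in TBM and 4.36% in TS, and cluster 20 had only 5 cells of TBM. In cluster 3, 0 members passed 1.5-fold in TS over TBM (3.41% of 9558 genes higher, 3.75% lower). There 34 members lay above 0, against 54.2% of all genes. In cluster 1, with 30 cells of TS, 8 were higher and 5 lower, against 16.8% and 14.9% of all genes. These comparisons share libraries and are not independent of each other.

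Other genes of replication outside the list of 40 were counted in the same way in HSPC-like cells. Of 65 such genes, 9 were past 1.5-fold higher and 0 lower in TS over CS, 0 and 1 in TBM over CBM, 1 and 1 in CS over CBM, and 3 and 0 in TS over TBM. The shares of all genes called higher were 4.64%, 2.96%, 4.15%, and 3.55% in this order, and those called lower 7.48%, 2.82%, 2.94%, and 3.85%. In TS over CS, thymidine kinase Tk1 was highest (1.18, with 28.2 UPM in CS and 63.9 in TS), followed by the histone chaperone Asf1b (0.88) and Gmnn, the inhibitor of licensing (0.82). Orc4 (-0.48), Atr (-0.37), and Chtf8 (-0.35) were lowest. In TS over TBM, Tk1 (0.79), cyclin A2 gene Ccna2 (0.73), and Asf1b (0.65) were highest, and Cdk2 (-0.35), Rrm2b (-0.35), and Atr (-0.23) lowest. In TBM over CBM the range ran from Chtf8 (-0.60), Gins3 (-0.36), and Lig1 (-0.31) to Asf1b (0.30), Rnaseh2a (0.31), and Recql4 (0.35). In CS over CBM it ran from E2f2 (-0.79), Cdk2 (-0.45), and E2f7 (-0.43) to Orc4 (0.39), Ccna2 (0.49), and Recql4 (0.64).

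Of 35 genes of G2 and mitosis, which act after S phase, 25 were past 1.5-fold higher in TS over TBM, with a median of 0.67, where 3.55% of all genes were. In CS over CBM 5 were (median 0.41, all genes 4.15%), in TS over CS 4 (median 0.17, all genes 4.64%), and in TBM over CBM 0 (median 0.01, all genes 2.96%). No gene of that list was past 1.5-fold lower in these comparisons. These counts are for the whole class, whose clusters differed in share between libraries, and were not made within clusters. Of the inhibitors of cyclin-dependent kinases, 4 of 7 passed the filter on low values. Cdkn1b, which encodes p27 and holds cells in G1, had log2 ratios of -0.77 in TS over CS, -0.24 in TBM over CBM, 0.66 in CS over CBM, and 0.14 (-0.01 to 0.29) in TS over TBM. In the same order Cdkn1a, which encodes p21, had 0.65, 0.48, 0.36, and 0.53, Cdkn2d had 0.74, 0.51, 0.21, and 0.44, and Cdkn2c had -0.09, -0.07, 0.60, and 0.57. Among markers of other classes within the HSPC-like cells, those of granulocyte-monocyte progenitors were the most abundant, at 16.5, 26.3, 18.3, and 21.6 per 10000, none of 8 at 0. Those of hemoglobin-rich cells were at 2.73 to 4.32, with 1 of 10 at 0 in CS. Their part in the differences was not tested.

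Outside the HSPC-like class, tumor-bearing libraries were higher than their controls in mast or basophil-like cells by 0.51 (0.44 to 0.57) in spleen and 0.39 (0.35 to 0.43) in bone marrow. In these cells 25 of 40 members were past 1.5-fold higher and 0 lower in TS over CS, against 16.6% and 15.9% of 9505 genes, and 14 and 0 in TBM over CBM, against 9.92% and 7.28% of 9552 genes. Rrm2 had 22.0, 56.8, 14.9, and 41.8 UPM. The clusters that made up this class differed between libraries. The shallow cluster led by Ccl6, Ccl3, and Ccl4 held 412 of 544 cells in CBM and 296 of 373 in CS but 228 of 656 in TBM and 45 of 122 in TS, and its own level was 13.4, 19.9, 14.6, and 18.0. The cluster led by Csrp3, Lmo4, and Ms4a2 had 25, 22.8, 31.9, and 29.6, on 70, 192, 28, and 47 cells.

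Granulocyte-monocyte progenitor-like cells of TS were above CS by 0.23 (0.20 to 0.26), and those of TBM above CBM by 0.22 (0.20 to 0.25). Here 3 members were past 1.5-fold higher and 0 lower in TS over CS (8.38% and 10.3% of 9559 genes), and 6 and 0 in TBM over CBM (8% and 4.72% of 9554 genes). Ccne1 was the highest in both, with log2 ratios of 0.95 (0.51 to 1.42) and 1.53 (1.11 to 1.98), and Rrm2 followed with 0.74 and 0.87. The class rested on 1 cluster led by Wfdc21 and Elane, at 31.5, 34.4, 33.5, and 36.1 per 10000, and on another led by Cd14 and Ms4a3, at 40.2, 41.9, 46.4, and 43.7, which held 18, 420, 14, and 319 cells. Megakaryocyte-like cells differed by 0.01 (-0.02 to 0.04) in spleen and -0.08 (-0.11 to -0.06) in bone marrow, and 0 members passed 1.5-fold in either (6.16% and 4.11% of 9473 genes, and 4.53% and 3.23% of 9549 genes). Hemoglobin-rich cells were lower in the tumor-bearing libraries, with log2 ratios of -0.15 (-0.19 to -0.11) in spleen and -0.05 (-0.08 to -0.02) in bone marrow. With globin transcripts left out of the total these were -0.36 and -0.07, and TS over TBM turned from 0.13 to -0.088. Ccne2 had the lowest ratio in both tumor comparisons, -1.21 and -0.66.

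Early erythroid-like cells were scarce in bone marrow, 20 in CBM and 33 in TBM, and in spleen most of them fell into different clusters in CS and TS. The log2 ratio of the sum was -0.02 (-0.03 to -0.02) for TS over CS and -0.05 (-0.10 to -0.0047) for TBM over CBM. The sign of both turned with the assignment of cells, to 0.0058 and 0.052 with own markers, 0.16 and 0.19 at clustering resolution 0.6, and 0.021 and 0.16 from 350 genes, and that of TBM over CBM also without the highest doublet scores (0.00039), so no direction is given for either. The ratio was -0.31 and -0.28 for CS over CBM and TS over TBM, and that of CS over CBM was 0.088 in cluster 7 alone. In TS over CS 0 members passed 1.5-fold (3.36% of 9585 genes higher, 3.43% lower), with Ccne2 (-0.56) and Ccne1 (-0.36) the lowest and Dtl (0.16) the highest. In the cluster with at least 10 cells of each library, led by Tmem56, C1qtnf12, and Crip2, the level was 57.1, 53.5, 60.6, and 45.2, on 12, 25, 39, and 779 cells, and TS over CS was -0.42.

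The members also varied together from cell to cell. HSPC-like cells of at least 5000 UMIs were thinned to that depth and ranked, for each member in turn, by the sum of the other 39. All 40 members were more than 1.5-fold higher in the 25% of cells that ranked highest than in the 25% that ranked lowest in each of the 4 libraries, with medians of 2.97, 2.48, 2.58, and 2.44 on the log2 scale. Of the genes outside the list, 15.1%, 14.1%, 19.4%, and 15.9% were higher by as much. Rrm2 and Dscc1 had mean ratios of 4.91 and 4.59, and Chaf1b and Rfc2 the lowest, 1.22 and 1.08. The order at the top is not given, since Dscc1 had 0 UMIs in the lowest 25% of CBM and Rrm2 had 1 in CS (ratio 5.88, interval 3.37 to 11.2). Rrm2 in TS had 162 UPM in the highest 25% and 7.15 in the lowest 25%. Dscc1 in CBM and Mcm10 in CS, at 0 UMIs there, were set to 3 and their ratios are lower bounds, and Ccne1 had 1 to 4 in every library, so its ratios are imprecise. Cells of the highest 25% were deeper, with medians of 20275 against 11821 UMIs in CBM and 17756 against 9148 in TS, and the part of depth was not tested beyond the thinning. The cells ranked here pool the 3 HSPC-like clusters, whose summed levels differed. The part of the clusters in this ranking was not tested.

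**Figure D5:**
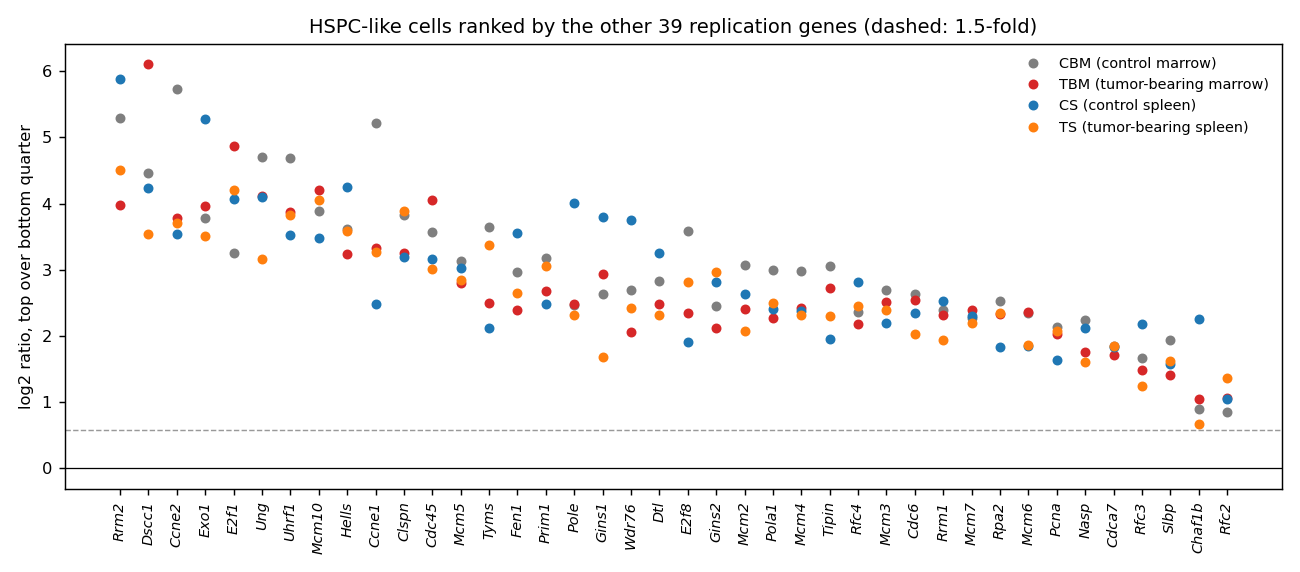
For each member, the log2 ratio of its UPM between the highest and the lowest 25% of HSPC-like cells ranked by the other 39 members, 1 point per library. The dashed line marks 1.5-fold, and all points lie above it, with means down to 1.08 for Rfc2. Where the lowest 25% had 0 UMIs, 3 were used, and the point is a lower bound.

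In granulocyte-monocyte progenitor-like cells 40, 34, 40, and 27 members were higher in the highest 25%, with medians of 1.26, 0.94, 1.48, and 0.77, against 12.5%, 6.34%, 22.5%, and 9.1% of all other genes. In early erythroid-like cells of CS and TS 34 and 33 were, with medians of 1.08 and 0.88, against 5.7% and 4.86%. Megakaryocyte-like cells had 39, 39, 40, and 40, against 13.2%, 11.1%, 15.4%, and 15%. Mast or basophil-like cells had 37 of 40, 39 of 40, 33 of 39, and 36 of 37, against 28.6%, 18%, 21.2%, and 24.6%. Hemoglobin-rich cells had 40, 40, 40, and 35, but there 56%, 58.8%, 50.6%, and 24.4% of all other genes were higher as well.

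The ranking by these genes separated other cell cycle genes in a way that differed between classes. In the highest 25% of HSPC-like cells, 57, 55, 54, and 54 of the 65 other replication genes were higher and 1, 1, 1, and 2 lower. Of the 35 genes of G2 and mitosis, 24, 17, 22, and 19 were higher and 2, 9, 2, and 4 lower, where 14.1%, 16.5%, 18%, and 18.2% of all other genes were lower. In mast or basophil-like cells of at least 5000 UMIs, 31, 26, 27, and 17 of the 30 to 35 G2 and mitosis genes given were higher, against 28.6%, 18%, 21.2%, and 24.6% of all other genes. In megakaryocyte-like cells, by contrast, 34, 29, 28, and 20 of the 35 were lower in the highest 25% and at most 1 was higher, against 14.3%, 9.58%, 12.2%, and 13.7% of all other genes lower. In granulocyte-monocyte progenitor-like cells 23, 20, 18, and 27 were lower and at most 1 higher, against 10.1%, 2.55%, 13.7%, and 4.29% lower. In early erythroid-like cells of CS and TS, 24 and 20 were lower (4.9% and 3.67% of all other genes) and 0 higher. Of the 4 inhibitors in HSPC-like cells, Cdkn1b had log2 ratios of -0.86, -1.09, -0.66, and -0.91 and Cdkn2d of -0.31, -0.59, -1.22, and -0.30. Cdkn2c had 0.72, 0.77, -0.30, and 1.22, and Cdkn1a 0.46, -0.07, 0.67, and 0.08, each with both signs.

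Among genes outside the list, Lig1, the ligase that joins Okazaki fragments, went most closely with the summed level over the 26 units (Pearson r = 0.96). Orc6, an origin recognition subunit, Cenph, a kinetochore gene, Ccdc34, and Atad5, which unloads the clamp, had 0.95 or 0.96. Gins4, the kinetochore gene Cenpk, Hpf1, the repair gene Brca1, and the replisome gene Wdhd1 had 0.94 to 0.93. 5 of these 10 genes belong to the list of other replication genes, which holds 65 of the 9593 genes ranked. The hemoglobin-rich cells of CBM and TBM were units far above the others in the sum, and their weight in r was not tested.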

How the data were processed

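Per the labels and the study's methods, 3' gene expression libraries were made from mixed sorted cells, 1 library per group. Cell Ranger 4.0 and the mm10 build are named in the submitters' processing notes. The authors deposited unfiltered matrices of UMI counts per gene and barcode, not normalized. The paper states that Cell Ranger was used with default settings, and whether counting used strand is not spelled out in the sources used here. Barcodes with at least 1000 genes and at most 10% mitochondrial UMIs were kept, and total depth was 101811035, 135207987, 145301019, and 176094297 UMIs in CBM, TBM, CS, and TS. The kept cells were clustered on 17386 genes with the members and other cell cycle lists left out (50 principal components, 20 neighbors, Leiden resolution 1.2), which gave 37 clusters. A cluster was named where its marker score was at least 0.7, exceeded the next class by 0.4, and rested on at least 3 markers. It also needed a marker among its leading genes. It stayed unnamed where another class had more markers among those genes, or where UMIs were few and no marker led. Those limits were set after the clusters had been seen. Doublets were not removed in the values reported, and an alternative left out the 5% highest doublet scores of each library. Scrublet itself called 0.742% to 1.72% of barcodes.

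UMIs were summed per class and library, and levels are given per 10000 UMIs or per 1000000 UMIs (UPM). With 1 library per group no test was made. Intervals are 95% exact Poisson, conditional, or binomial intervals and cover counting error only. A gene was counted as higher or lower past 1.5-fold, and a count of 0 was set to 3 UMIs for a ratio. All genes with a mean of at least 5 UPM served as background. In each comparison of HSPC-like cells the 5 highest and 5 lowest members are named, with the 3 highest and 3 lowest other replication genes and the 10 genes most like the sum. For other classes and clusters, the members named were picked with their values in view. The members, lists, and comparisons were chosen with earlier results of these data known. The ratio script was tested on simulated data. Alternatives changed the barcode and mitochondrial limits, the naming of classes, the resolution, the total, free RNA, doublets, the fold, and the thinning. Python 3.11.15, NumPy 2.4.6, SciPy 1.17.1, pandas 2.3.3, scanpy 1.11.5, leidenalg 0.10.2, and matplotlib 3.10.9 were used. Promoter sequences are RefSeq entries on GRCm38.p6.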

Additional observations from a re-analysis of the deposited data

Results flagged for a closer look

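In HSPC-like cells as clustered, the tissue difference went in opposite directions in the control and the tumor-bearing libraries. The log2 ratio of the summed level was -0.080 between the control libraries, as CS over CBM, and 0.29 between the tumor-bearing ones, as TS over TBM. This opposition depended on the cells taken. Without cluster 20 the ratios were 0.081 and 0.48, and from 350 genes with own markers 0.016 and 0.12, both in the same direction. In cluster 3, led by Cd34, Dntt, and Flt3, the tumor difference was 0.15 for TS over CS and -0.19 for TBM over CBM, and CS over CBM was -0.13 while TS over TBM was 0.20. With 1 library in each group, none of these differences between comparisons was tested, and the cause was not tested.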

How the results depend on the processing

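Each value below is a log2 ratio of the summed level, and the cause of a shift was not tested. In HSPC-like cells, TS over CS (0.35) was 0.18 with classes taken from each barcode's own markers, 0.12 with these and barcodes of at least 350 genes, 0.032 in cluster 1, 0.15 in cluster 3, and 0.39 without cluster 20. TBM over CBM (-0.01) was -0.037 with hemoglobin, mitochondrial, and ribosomal protein genes left out of the total, 0.0088 from 350 genes, -0.16 in cluster 1, and -0.19 in cluster 3. CS over CBM (-0.08) was -0.13 with those genes left out, 0.016 from 350 genes, -0.034 in cluster 1, -0.13 in cluster 3, and 0.081 without cluster 20. TS over TBM (0.29) was 0.14 with own markers, 0.23 with those genes left out, 0.31 after subtraction of 10% free RNA and as the mean over members, 0.12 from 350 genes, 0.15 in cluster 1, 0.20 in cluster 3, and 0.48 without cluster 20. In early erythroid-like cells, TS over CS (-0.02) was 0.0058 with own markers, 0.16 at resolution 0.6, -0.052 after subtraction, -0.055 as the mean over members, -0.035 without the highest doublet scores, 0.021 from 350 genes, and -0.42 in cluster 7. TBM over CBM (-0.05) was -0.11 at 5% mitochondrial UMIs, 0.052 with own markers, 0.19 at resolution 0.6, 0.00039 without the highest doublet scores, and 0.16 from 350 genes. CS over CBM (-0.31) was -0.16 with own markers, -0.23 at resolution 0.6, -0.25 without the highest doublet scores, -0.41 from 350 genes, and 0.088 in cluster 7. TS over TBM (-0.28) was -0.24 at 5% mitochondrial UMIs, -0.21 with own markers, -0.55 from 350 genes, and -0.24 in cluster 7. With hemoglobin genes left out of the total, hemoglobin-rich cells went from -0.15 to -0.36 in TS over CS, from 0.23 to 0.19 in CS over CBM, and from 0.13 to -0.088 in TS over TBM. At a fold of 2 the members called higher in HSPC-like cells went from 8 to 1 in TS over CS and from 3 to 0 in TS over TBM. The share of HSPC-like cells past the limit was 19.4%, 17.5%, 16.2%, and 27.8% at 10 member UMIs, and 52.9% in TS with thinning to 1000 UMIs and a limit of 3. The alternatives with single clusters and those for hemoglobin-rich cells were chosen after seeing the data. Of all alternative values, 63 stayed within the counting interval or within 1.5 times the count, 42 moved, and 11 reversed from a value whose interval excluded 0. Some of the 63 could not change, so the tally does not measure stability. Counts of 0 members stay 0 at a higher fold or on fewer genes. In early erythroid-like cells the limit of 2000 genes left the same UMIs as the main setting. Among those that moved, TBM over CBM in HSPC-like cells from 350 genes also changed sign, from a value whose interval held 0. No paired analysis was possible because each group held 1 library and the labels carry no replicate numbers. CS held 148 HSPC-like cells, which limits single genes there, as for Ccne1 with 14 UMIs.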
